A study of Homo sapiens with 3 samples.

Results

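The nuclear genes of oxidative phosphorylation were described complex by complex in MDA-MB-231 cells that carried 1 of 3 forms of KAP1. Of the 19076 entries of the deposited table, 99 had symbols beginning with those of the complex I, III, IV and V subunit families (NDUFA, NDUFB, NDUFC, NDUFS, NDUFV, UQCR, COX4I to COX8 and ATP5) or were SDHA, SDHB, SDHC, SDHD or CYC1. The pseudogene entries ATP5EP2, NDUFAF4P1 and UQCRBP1 were left out, which leaves 96 members. Of these, 88 encode subunits or complex I assembly factors: 39 complex I subunits by symbol, 7 NDUFAF assembly factors, 4 genes of complex II, 9 of complex III, 14 of complex IV and 15 of complex V. The other 8 are ATP5S and ATP5SL, the gene copies UQCRHL and ATP5L2, and 4 readthrough or antisense entries, and they are described apart. MDA-MB-231 is an established human breast cancer line of mesenchymal-like basal type, and the cells of all 3 groups carried a short hairpin RNA against their own KAP1, the corepressor encoded by TRIM28. S473D cells re-expressed KAP1 with aspartate in place of the serine that the names refer to, a charged residue used to imitate a phosphorylated one. S473A cells re-expressed it with alanine there, which cannot be phosphorylated, and wt cells re-expressed the wild-type protein, which keeps it. Each form gave 1 library of total RNA, so there is no replicate error and no test of a difference, and each value below describes a pair of libraries. The labels do not say whether a form was carried by a single clone or by a pool of cells.

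Oxidative phosphorylation takes place in the inner mitochondrial membrane. Complexes I and II pass electrons from NADH and succinate to ubiquinone, complex III passes them on to cytochrome c, and complex IV, cytochrome c oxidase, reduces oxygen. Complexes I, III and IV pump protons while doing so, and complex V, ATP synthase, lets the protons flow back to make ATP. Apart from complex II, each complex joins subunits encoded in the nucleus with a few encoded by mitochondrial DNA, so that the complexes are built from both genomes. In rapidly growing cancer cells the same machinery also regenerates the oxidised cofactors needed for nucleotide and aspartate synthesis.

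Levels are RPKM, reads scaled to the length of the gene model and to library size, recovered from the deposited log2 values. A difference is that of log2(RPKM + 1) between 2 libraries, and low genes appear less changed on it than they are. It was taken for 11579 genes whose RPKM averaged 1 or more. The depth, estimated from the steps between low values, was 23700000 reads for S473D, 29300000 for S473A and 25600000 for wt. Beside a ratio of RPKM stands an exact 95% interval from reads estimated over the coding length, and it covers counting error only. Of 11331 genes with an interval, 10871 had a coding length, and the transcript length stood in for the rest. Reads outside the coding sequence were not counted, so an interval can be wider than the whole transcript would give. The median difference of all genes was -0.10 for S473D minus wt, 0.00 for S473A minus wt and -0.10 for S473D minus S473A. TRIM28 itself stood at 25.6 RPKM in S473D, 32.3 in S473A and 28.7 in wt. The 7 markers expected in the line were present in every library (VIM at 673 RPKM in S473D, 740.0 in S473A and 738 in wt), and of 6 expected to be low, ESR1, PGR, CDH1 and EPCAM stayed at or under 0.339 RPKM, while ERBB2 stood at 5.34 RPKM in S473D, 7.5 in S473A and 7.94 in wt and GATA3 at 1.45 RPKM in S473D, 1.83 in S473A and 1.72 in wt. Markers of fibroblasts (4 listed) and leukocytes (2 listed) reached at most 1.66 RPKM. Genes encoded by mitochondrial DNA were searched under 26 symbols and 0 were found, so the mitochondrial subunits are not analysed here.

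Most of the nuclear genes of oxidative phosphorylation stood higher in S473D than in wt. Of the 88 subunit and assembly genes, 84 passed the level filter, and 78 of these were above wt and 6 below it, where 39.3% of all genes were above. Their median difference was 0.65. At least 1.5-fold higher were 48 of the 84, against 6.82% of all genes, and at least 2-fold higher were 9, against 0.993% of all genes. None of them was 1.5-fold lower, a size that 3.23% of all genes reached. The counting interval of the S473D to wt ratio excluded 1 on the higher side for 74 of the 84 genes (22.2% of all genes) and on the lower side for 4 (37.0%). RPKM values are relative to all reads of a library and give no absolute amount. Each library holds RNA of many cells, so more transcript per cell and more cells with the transcript cannot be told apart. The order of the complexes by median difference was complex III (0.90), complex IV (0.89), complex I subunits (0.64), complex I assembly factors (0.63), complex V (0.57) and complex II (0.16). Short transcripts in general stood higher in the S473D library, and the values that bear on this are given with the coding lengths further on.

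Summed levels put the libraries in the same order. The 88 genes together took 2.83% of all summed RPKM in S473D, 2.05% in S473A and 2.05% in wt. Summed over its genes, complex V stood at 3295 in S473D, 2064 in S473A and 2077 in wt, all in RPKM. The complex IV sum was 3120.0 in S473D, 1687 in S473A and 1697 in wt, and the 39 complex I subunits gave 3101 in S473D, 1952 in S473A and 1943 in wt. Complex III summed to 1261 in S473D, 794 in S473A and 772 in wt. The 4 genes of complex II gave 225 in S473D, 179 in S473A and 184 in wt, and the 7 assembly factors 145 in S473D, 98 in S473A and 95.6 in wt. Each of these sums was highest in S473D. The ratio of the S473D sum to the wt sum ran from 1.22 for complex II to 1.84 for complex IV, whereas S473A over wt stayed between 0.97 and 1.03. Summed RPKM over all genes was itself larger in S473D, at 393381 against 330916 in S473A and 330667 in wt. As a share of it, complex II differed little, with 0.0573% in S473D, 0.0540% in S473A and 0.0557% in wt. Complex IV took 0.793% in S473D, 0.510% in S473A and 0.513% in wt.

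**Figure D1:**
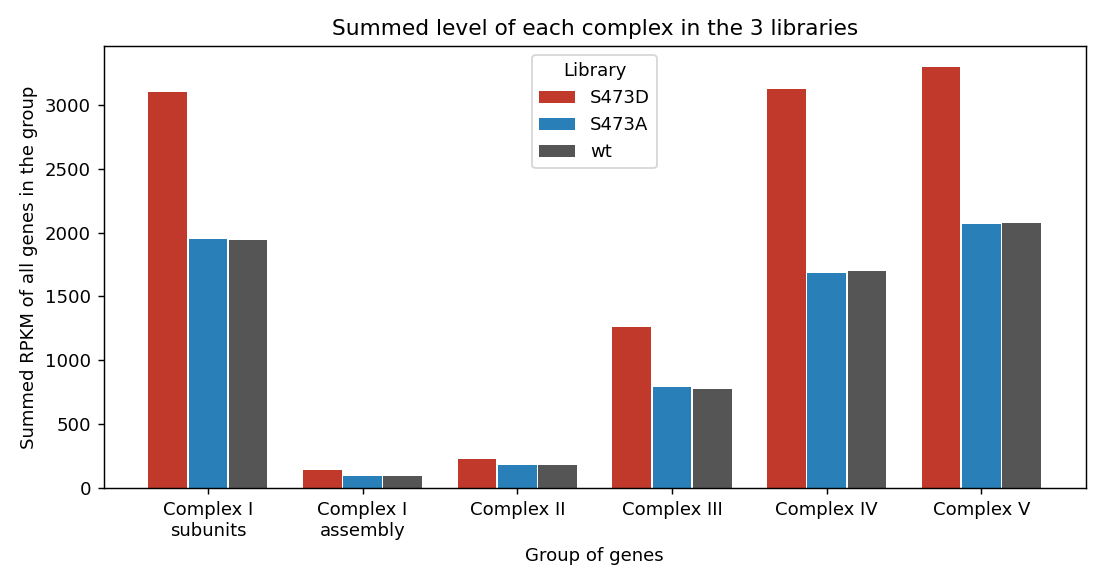
Summed RPKM of all genes in each group (bars, from 0) in the S473D, S473A and wt libraries, 1 library each. The S473D bar is the tallest in every group, with 3120.0 against 1697 RPKM in wt for complex IV, while the S473A and wt bars nearly coincide. Summed RPKM over all genes was also larger in S473D (393381) than in wt (330667).

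**Figure D2:**
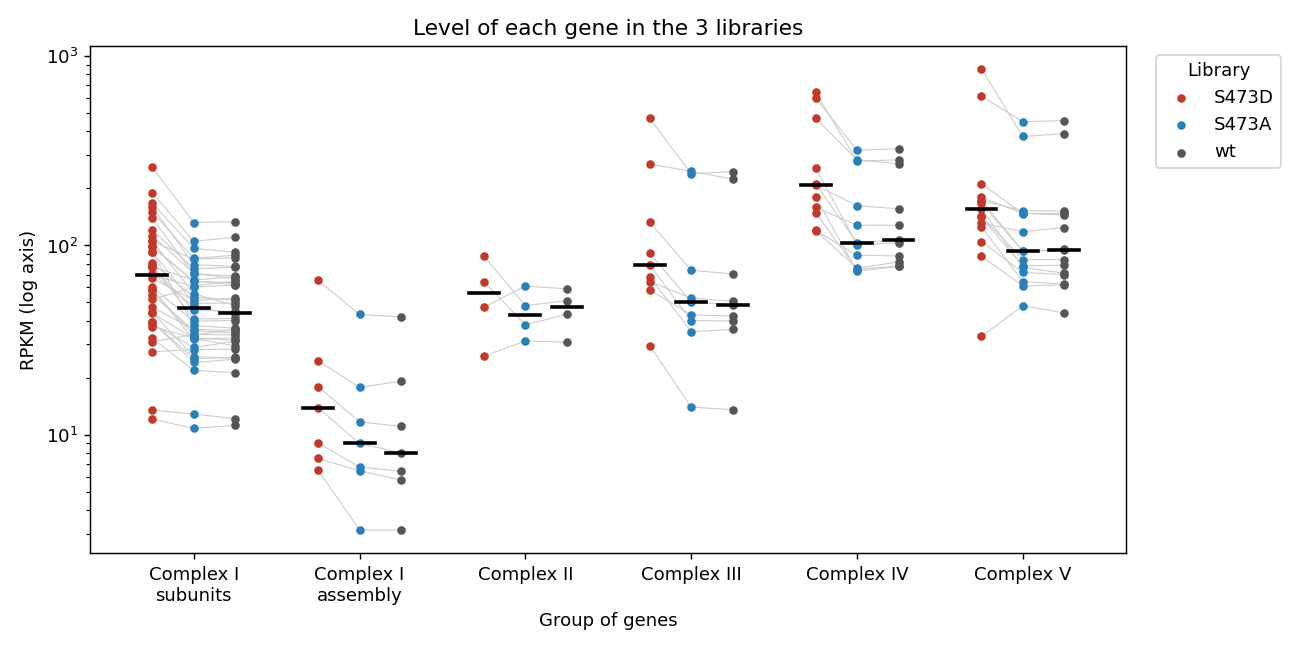
Level of each of the 84 genes in RPKM (log axis) by group and library, with grey lines joining the same gene and black bars at the median. Complex IV and V genes sit highest and the assembly factors lowest, and most lines fall between S473D and S473A and run flat between S473A and wt.

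Complex I, NADH dehydrogenase, takes its electrons in a peripheral arm and pumps protons in a membrane arm. Of its 39 subunit genes by symbol, 38 passed the filter. Of the 38, 35 stood above wt in S473D (39.3% of all genes) and 23 were at least 1.5-fold higher (6.82% of all genes). The core genes of the peripheral arm went separate ways. NDUFV1, whose product binds NADH and the flavin, stood at 52 RPKM in S473D, 60.2 in S473A and 61.8 in wt, a difference of -0.25 for S473D minus wt. NDUFS1, the large iron-sulfur subunit that receives those electrons, stood at 27.5 RPKM in S473D, 28.2 in S473A and 28.4 in wt (-0.04, and 0.06 when differences are centred on the median of all genes). In RPKM, S473D was the lowest library for both genes, and the S473D to wt ratios were 0.841 (interval 0.789 to 0.896) for NDUFV1 and 0.969 (0.902 to 1.04) for NDUFS1.

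A further 4 core genes were each at least 1.5-fold higher in S473D (6.82% of all genes). NDUFV2, an iron-sulfur subunit that sits beside NDUFV1, stood at 112 RPKM in S473D, 71.5 in S473A and 66.6 in wt (0.75). NDUFS3, a subunit of the arm that leads to ubiquinone, stood at 80.6 RPKM in S473D, 53.4 in S473A and 51.4 in wt (0.64). Both were highest in S473D, with S473A and wt close together. NDUFS7, which carries the last iron-sulfur cluster before ubiquinone, stood at 39.6 RPKM in S473D, 24.1 in S473A and 25.1 in wt (0.64). NDUFS8, with a pair of iron-sulfur clusters, stood at 98.1 RPKM in S473D, 64.5 in S473A and 63.7 in wt (0.62). NDUFS1 and NDUFV1, which were not higher in S473D, have longer coding sequences than these 4, at 2181 bases for NDUFS1 and 1392 for NDUFV1, against 630 to 792 for the 4. With the trends on transcript length and GC content over all genes removed, NDUFV1 stood at -0.37 and NDUFS1 at 0.06. The 4 then stood between 0.16 for NDUFS8 and 0.65 for NDUFS7. Whether length bears on the split was not tested.

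All 31 accessory genes that passed the filter stood above wt in S473D (39.3% of all genes), from 0.10 to 1.31 with a median of 0.67. Of the 31, 19 were at least 1.5-fold higher (6.82% of all genes). NDUFA4, named for complex I but known as a subunit of cytochrome c oxidase, led them. It stood at 92.1 RPKM in S473D, 37.8 in S473A and 36.6 in wt, 2.52-fold higher in S473D than in wt (interval 2.15 to 2.95) and rank 26 of all 11579 genes. NDUFB7, an accessory subunit on the intermembrane side, stood at 105 RPKM in S473D, 55.7 in S473A and 48 in wt, a ratio of 2.19 (interval 1.97 to 2.45). NDUFA1, a small subunit of the membrane arm, stood at 160.1 RPKM in S473D, 79.1 in S473A and 77.6 in wt, a ratio of 2.06 (interval 1.83 to 2.33). In each of the 3 the S473D value lay well above S473A and wt, and S473A and wt were close to each other for NDUFA4 and NDUFA1, while NDUFB7 was higher in S473A than in wt. NDUFA11, a membrane-arm subunit, lay just short of 2-fold on the log2 scale at 0.997, with 139 RPKM in S473D, 70.6 in S473A and 69.1 in wt.

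The most abundant complex I transcripts moved with the group. NDUFS5, an accessory subunit of the intermembrane side, stood at 259 RPKM in S473D, 132 in S473A and 134 in wt (0.95), and NDUFA12, an accessory subunit of the peripheral arm, at 189.9 RPKM in S473D, 105 in S473A and 111 in wt (0.77). Smallest among the accessory genes were the differences of NDUFB10, at 69.4 RPKM in S473D, 61 in S473A and 64.8 in wt (0.10), and NDUFA10, at 12.1 RPKM in S473D, 10.8 in S473A and 11.2 in wt (0.10). Their S473D to wt intervals, 0.973 to 1.18 and 0.915 to 1.27, include 1. NDUFA4L2, a relative of NDUFA4 known as a hypoxia-induced gene, was listed at 0 in S473A and wt and at 0.0351 RPKM in S473D, and did not pass the filter. With NDUFA4 counted in complex IV by structure, the median of the remaining complex I subunits was 0.64 and that of complex IV 0.91.

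Complex I is put together with the help of assembly factors that are absent from the finished enzyme, and their transcripts were mostly scarcer than those of the subunits. All 7 NDUFAF genes passed the filter and stood above wt in S473D (39.3% of all genes), 4 of them at least 1.5-fold (6.82%). NDUFAF5, an enzyme that hydroxylates NDUFS7 during assembly, stood at 6.5 RPKM in S473D, 3.15 in S473A and 3.14 in wt, a ratio of 2.07 with an interval of 1.59 to 2.75. NDUFAF1, a factor of membrane-arm assembly, stood at 13.9 RPKM in S473D, 8.999 in S473A and 8.03 in wt (0.72). NDUFAF2, which is held on the peripheral arm until NDUFA12 takes its place, was the most abundant at 65.5 RPKM in S473D, 43.2 in S473A and 41.9 in wt (0.63). These 3 were highest in S473D. NDUFAF4, which acts in building the ubiquinone-binding module, stood at 17.9 RPKM in S473D, 11.7 in S473A and 11.1 in wt (0.65). At the lower end were NDUFAF3, a partner of NDUFAF4, at 24.6 RPKM in S473D, 17.8 in S473A and 19.2 in wt (0.34), and NDUFAF6 at 7.5 RPKM in S473D, 6.45 in S473A and 5.78 in wt (0.33). NDUFAF7, a methyltransferase needed for assembly, stood between them and the rest at 9.05 RPKM in S473D, 6.76 in S473A and 6.41 in wt (0.44).

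**Figure D3:**
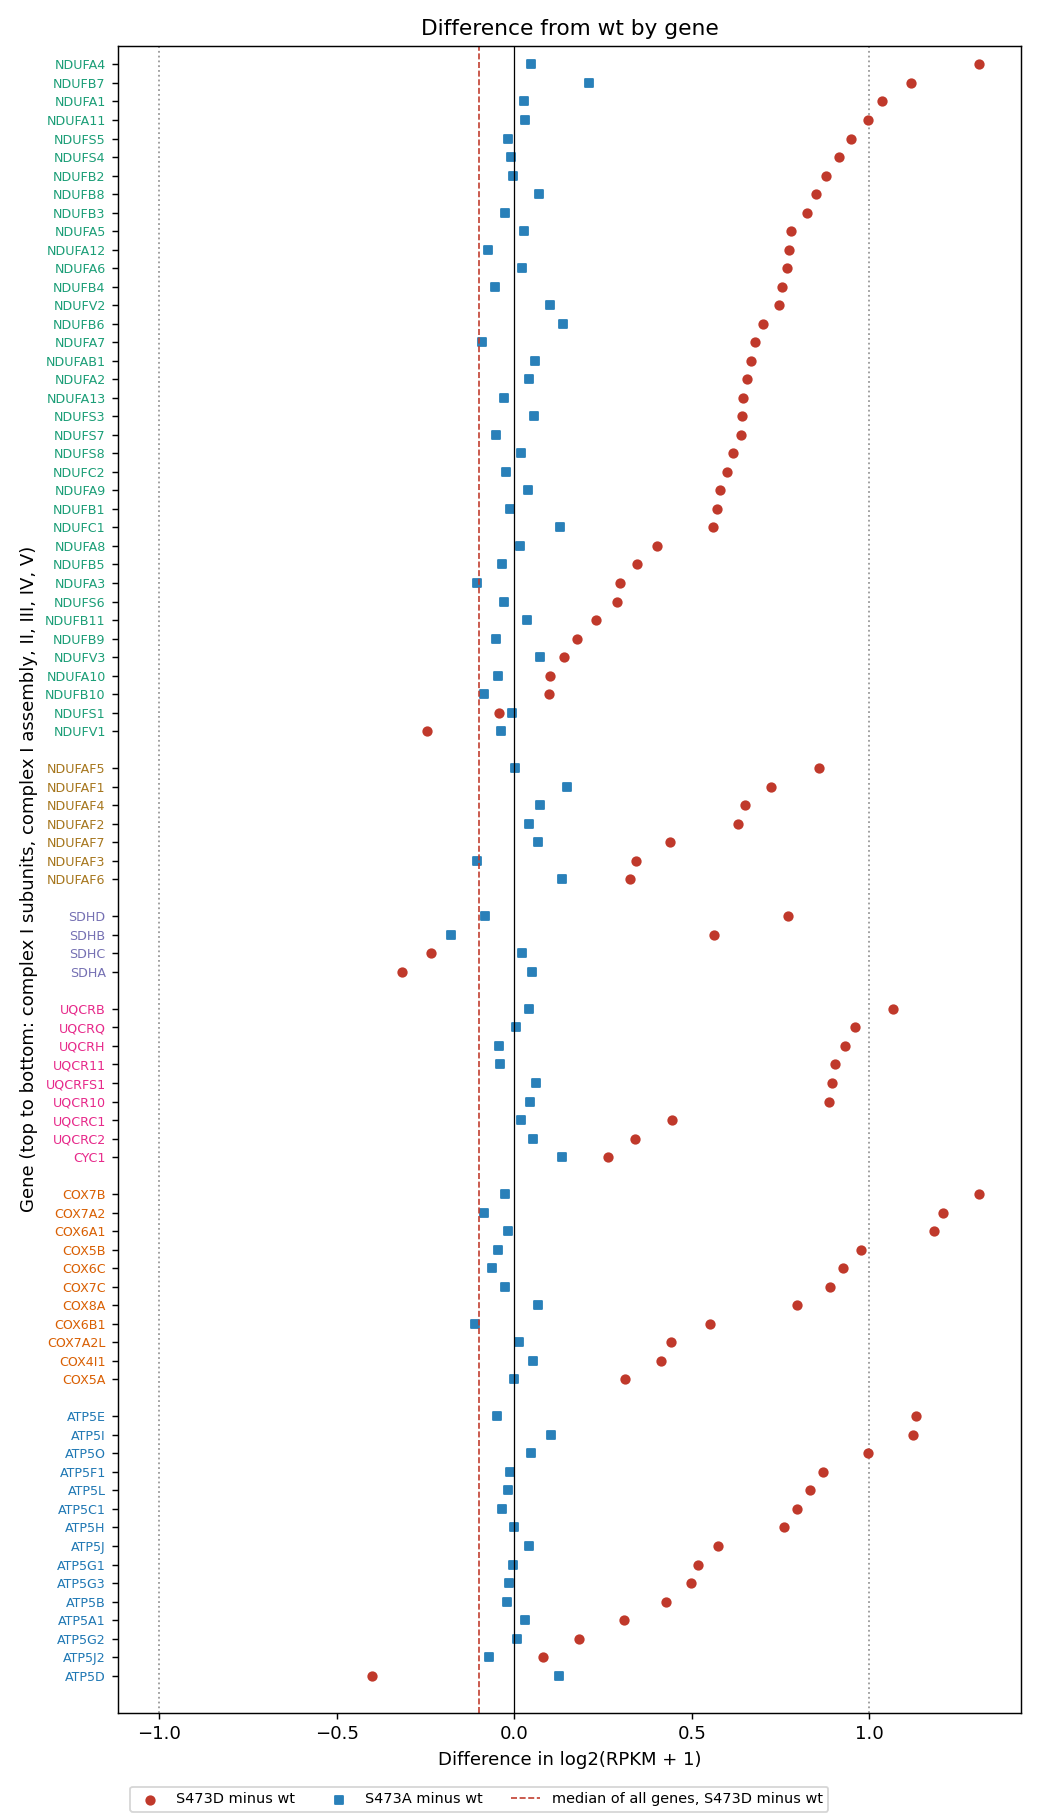
Difference in log2(RPKM + 1) of the genes that passed the filter, 1 left out, for S473D minus wt (red circles) and S473A minus wt (blue squares), sorted within each group, with dotted lines at 2-fold and a dashed line at the median of all genes for S473D minus wt (-0.10). The red circles spread between -0.40 and 1.31, mostly right of 0, while the blue squares stay between -0.18 and 0.21.

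Complex II, succinate dehydrogenase, is the complex encoded wholly in the nucleus and is also an enzyme of the tricarboxylic acid cycle. Its 4 genes split evenly in S473D. SDHA, the flavoprotein that oxidises succinate, stood at 47.2 RPKM in S473D, 61 in S473A and 59 in wt, an S473D to wt ratio of 0.7997 (interval 0.757 to 0.845). SDHC, a membrane anchor, stood at 26 RPKM in S473D, 31.3 in S473A and 30.8 in wt, a ratio of 0.845 (0.726 to 0.982). For both genes S473D was the lowest library. SDHD, the other membrane anchor, stood at 87.7 RPKM in S473D, 48.2 in S473A and 51 in wt, a ratio of 1.72 (interval 1.55 to 1.9), and SDHB, the iron-sulfur subunit, at 64.4 RPKM in S473D, 38.1 in S473A and 43.3 in wt, a ratio of 1.49 (1.37 to 1.62). S473D was the highest library for both. SDHD alone of the 4 was past 1.5-fold for S473D minus wt on the log2(RPKM + 1) scale (6.82% of all genes were that much higher). The anchors SDHC and SDHD, which are partners in the membrane, thus stood at -0.23 and 0.77.

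The stretches of 250 bases before the RefSeq start sites of a gene with a large difference, COX7B, and of SDHD and SDHA, which lay on opposite sides of wt, are shown for comparison, 5′ to 3′ on the gene's own strand in build GRCh38.p14. They lie at chrX:77899218-77899467, chr11:112086623-112086872 and chr5:218070-218319, all on the plus strand. Capitals mark the core of a site for NRF1 (the letters GCGCA, any 1 base, then GCGC) and the core of a site for ETS factors such as GABPA (CCGGAA), on either strand, where a search found these letters. Neither kind of match overlaps the other in these stretches.
COX7B: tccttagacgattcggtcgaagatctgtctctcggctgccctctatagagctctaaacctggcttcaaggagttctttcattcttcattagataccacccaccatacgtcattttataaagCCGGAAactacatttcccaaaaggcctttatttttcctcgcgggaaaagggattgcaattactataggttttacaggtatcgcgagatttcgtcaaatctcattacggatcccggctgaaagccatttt
SDHD: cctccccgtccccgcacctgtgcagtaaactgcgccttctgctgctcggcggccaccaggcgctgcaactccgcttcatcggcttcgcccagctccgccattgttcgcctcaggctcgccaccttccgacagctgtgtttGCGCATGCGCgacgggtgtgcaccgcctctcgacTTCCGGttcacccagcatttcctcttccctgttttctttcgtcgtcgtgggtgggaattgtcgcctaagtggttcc
SDHA: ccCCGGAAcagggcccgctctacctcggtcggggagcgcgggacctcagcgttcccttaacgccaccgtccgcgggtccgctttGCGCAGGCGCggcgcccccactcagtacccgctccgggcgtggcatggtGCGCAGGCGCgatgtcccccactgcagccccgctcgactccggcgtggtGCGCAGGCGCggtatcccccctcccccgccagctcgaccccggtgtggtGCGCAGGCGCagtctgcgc

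SDHA holds 4 matches to the NRF1 core and 1 to the ETS core, SDHD 1 of each and COX7B 1 ETS match, and the S473D minus wt differences of the 3 genes were -0.32, 0.77 and 1.31. A promoter was at hand in RefSeq for 70 of the 84 genes. Those without one included ATP5D and SDHC, which stood below wt in S473D, and UQCRB, CYC1, COX6C and ATP5B, which stood above. The shares and medians that follow leave these genes out. The NRF1 core was found before 13 of the 70 (18.6%), against 11.4% of 9254 genes that passed the filter and 5.53% of all 27305 promoters. The ETS core was found before 29 (41.4%), against 26.8% and 14.8%. The core of sites for estrogen-related receptors (AAGGTCA) preceded 5 genes (7.14%, against 2.09% of passing genes and 3.46% of all promoters) and the YY1 core (AAGATGG) 4 (5.71%, against 3.62% and 3.77%). The GC box (GGGCGG) preceded 36 (51.4%, against 68.8% and 42.3%) and the CCAAT box (CCAAT) 20 (28.6%, against 36.2% and 33%). All 6 were searched on both strands, and a match is a run of letters, not a shown binding site. The median S473D minus wt difference was 0.77 with and 0.65 without a match for the NRF1 core, 0.77 with and 0.63 without a match for the ETS core, 0.70 with and 0.69 without a match for the YY1 core and 0.75 with and 0.68 without a match for the core of estrogen-related receptors. It was 0.67 with and 0.71 without a match for the GC box and 0.64 with and 0.71 without a match for the CCAAT box, so that genes with these 2 boxes had the lower median.

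Complex III passes electrons from ubiquinol to cytochrome c. Its 9 genes all stood above wt in S473D (39.3% of all genes), 6 of them at least 1.5-fold (6.82%), and their differences were unequal. UQCRB, a small subunit near the ubiquinone site, stood at 29.5 RPKM in S473D, 14 in S473A and 13.6 in wt, 2.17-fold higher in S473D (interval 1.73 to 2.73). UQCRQ, another small subunit, stood at 78.7 RPKM in S473D, 40.1 in S473A and 40.0 in wt (0.96), and UQCRH, the hinge protein that helps dock cytochrome c, at 469.6 RPKM in S473D, 238 in S473A and 246 in wt (0.93). The S473D values were again apart from the other pair of libraries. The small membrane subunits UQCR11 and UQCR10 had differences of 0.90 and 0.89. UQCRFS1, the Rieske iron-sulfur protein, belonged with these genes although its coding sequence is longer (822 bases), at 133 RPKM in S473D, 73.9 in S473A and 70.8 in wt (0.90).

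The large subunits differed less. UQCRC1 and UQCRC2, the core proteins that face the matrix, stood at 58.1 RPKM in S473D, 43 in S473A and 42.4 in wt (0.45) and at 64.5 RPKM in S473D, 52.7 in S473A and 50.7 in wt (0.34). CYC1, the haem protein cytochrome c1, was abundant at 269 RPKM in S473D, 246 in S473A and 224 in wt, an S473D to wt ratio of 1.2 (interval 1.16 to 1.24). For CYC1 the S473A value also lay above wt, with a ratio of 1.1 (1.06 to 1.14). Reads of UQCRB and UQCRH can be shared with copies of these genes. The pseudogene entry UQCRBP1 stood at 85.8 RPKM in S473D, 40.9 in S473A and 39.2 in wt, above UQCRB itself in every library, and the copy UQCRHL at 224 RPKM in S473D, 117 in S473A and 120.02 in wt. The levels of UQCRB and UQCRH are therefore uncertain.

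Complex IV had the largest relative sum in S473D. Of 14 genes, 11 passed the filter, and all 11 stood above wt in S473D (39.3% of all genes). At least 1.5-fold higher were 7 (6.82% of all genes), 3 of them at least 2-fold (0.993%). COX7B, a small membrane-spanning subunit, stood at 257 RPKM in S473D, 101 in S473A and 103 in wt, a ratio of 2.49 (interval 2.27 to 2.74), rank 25 of all genes. COX7A2 stood at 180.3 RPKM in S473D, 73 in S473A and 77.5 in wt, a ratio of 2.33 (2.12 to 2.55), and COX6A1, the most abundant of the complex in S473D, at 644 RPKM in S473D, 279 in S473A and 283 in wt, a ratio of 2.28 (2.17 to 2.39). In all 3 genes S473A lay slightly under wt and S473D far above both. COX5B, which binds zinc on the matrix side, stood at 211 RPKM in S473D, 103 in S473A and 107 in wt, with a difference of 0.98 from wt and of 1.023 from S473A. COX6C and COX7C had differences of 0.93 and 0.89, the second at 601 RPKM in S473D, 318 in S473A and 324 in wt, which made it the most abundant complex IV gene in S473A and wt.

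Lower in the order were COX8A (0.80) at 469.8 RPKM in S473D, 283 in S473A and 270.3 in wt, COX6B1 (0.55) at 120.3 RPKM in S473D, 75.7 in S473A and 81.9 in wt, and COX7A2L (0.44), whose product joins complexes III and IV in supercomplexes, at 119.9 RPKM in S473D, 88.9 in S473A and 88 in wt. COX4I1 and COX5A, which join first to the mitochondrially encoded core during assembly, had the smallest differences. COX4I1 stood at 208 RPKM in S473D, 162 in S473A and 156 in wt (0.41) and COX5A at 159 RPKM in S473D, 128 in S473A and 128 in wt (0.31). COX5A and COX5B, which are unrelated in structure in spite of their names, thus stood 0.31 and 0.98 from wt. The tissue isoforms were nearly silent. COX7A1, the heart and muscle form beside COX7A2, was listed at 0 in S473D and S473A and at 0.153 RPKM in wt. COX6B2, the testis form beside COX6B1, stood at 0.0566 RPKM in S473D, 0.144 in S473A and 0.163 in wt, and COX8C, the testis form beside COX8A, at 0.0784 RPKM in S473D, 0.128 in S473A and 0.073 in wt. These 3 did not pass the filter, and reads that low give no difference that can be read.

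Complex V holds a catalytic head, which makes ATP, and a membrane part with a ring that turns as protons pass. Of 15 genes 14 stood above wt in S473D (39.3% of all genes) and 1 below, and 7 were at least 1.5-fold higher (6.82%). The subunits of the head ranged from the lowest to the highest difference of the complex. ATP5E, the epsilon subunit of the central stalk, stood at 855 RPKM in S473D, 377 in S473A and 389 in wt, a ratio of 2.2 (interval 2.06 to 2.34), the highest level of all members in S473D. ATP5D, the delta subunit that lies next to it in the stalk, stood at 33.1 RPKM in S473D, 48.1 in S473A and 44 in wt, a ratio of 0.751 (interval 0.659 to 0.855) and the lowest difference of all members at -0.40. S473D was the highest library for ATP5E and the lowest for ATP5D. ATP5C1, the gamma subunit that forms the rotor shaft, stood at 167 RPKM in S473D, 93.3 in S473A and 95.6 in wt (0.80). ATP5B, the catalytic beta subunit, stood at 614 RPKM in S473D, 449.99 in S473A and 457 in wt (0.43), and ATP5A1, the alpha subunit, at 179 RPKM in S473D, 148 in S473A and 145 in wt (0.31). The entry ATP5EP2, a pseudogene of ATP5E, stood at 222 RPKM in S473D, 94.2 in S473A and 88.4 in wt, so reads of ATP5E may be shared and its level is uncertain.

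The subunits of the outer stalk and the membrane part all stood above wt in S473D, from 0.08 for ATP5J2 to 1.12 for ATP5I. ATP5I, subunit e, stood at 156 RPKM in S473D, 76.6 in S473A and 71.3 in wt, a ratio of 2.2 (interval 1.94 to 2.49), and ATP5O, the subunit that ties the head to the outer stalk, at 125 RPKM in S473D, 64.5 in S473A and 62.4 in wt, a ratio of 2.01 (1.86 to 2.17). ATP5F1, ATP5L, ATP5H and ATP5J, further subunits of the outer stalk and membrane part, had differences of 0.87, 0.83, 0.76 and 0.57. ATP5J2, subunit f, was close to wt at 132 RPKM in S473D, 118 in S473A and 124 in wt (0.08, ratio interval 0.96 to 1.17). The 3 genes ATP5G1, ATP5G2 and ATP5G3 encode precursors of the same c subunit of the ring, and they differed among themselves. ATP5G1 stood at 212 RPKM in S473D, 147 in S473A and 148 in wt, with an S473D to wt ratio of 1.43 (interval 1.34 to 1.53). ATP5G3 stood at 87.8 RPKM in S473D, 61.2 in S473A and 61.9 in wt, with a ratio of 1.42 (1.28 to 1.57). ATP5G2 stood at 172 RPKM in S473D, 153 in S473A and 152 in wt, with a ratio of 1.13 (1.06 to 1.21). ATP5G1 was thus the most abundant of the 3 in S473D, while ATP5G1 and ATP5G2 were close in S473A and wt.

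The 8 remaining members are named like subunits but were not counted among them here. ATP5S and ATP5SL, whose products act in assembly or coupling, stood at 4.18 RPKM in S473D, 4.32 in S473A and 4.97 in wt (-0.20) and at 17 RPKM in S473D, 22 in S473A and 20.4 in wt (-0.25). Both were lowest in S473D. The copy ATP5L2 stood at 4.45 RPKM in S473D, 1.56 in S473A and 2.17 in wt (0.78 from wt and 1.09 from S473A), with few reads and an S473D to wt interval of 1.1 to 3.9. The readthrough entry NDUFC2-KCTD14 stood at 30.02 RPKM in S473D, 31.4 in S473A and 30.7 in wt (-0.03), where NDUFC2 itself stood at 39.4 RPKM in S473D, 25.3 in S473A and 25.7 in wt (0.60), and since they share exons their separation is uncertain. The readthrough entry ATP5J2-PTCD1, with a mean of 1.44 RPKM, was the member nearest above the filter, and the antisense entry NDUFA6-AS1, with 0.911 RPKM, the nearest below it. The antisense entry NDUFB2-AS1 stood at 0.732 RPKM in S473D, 0.733 in S473A and 0.734 in wt and did not pass. Whether counting used the strand was not stated, so reads of an antisense entry and of its partner cannot be told apart. Over all 96 members, 90 passed the filter and 81 of these stood above wt in S473D (39.3% of all genes).

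Between S473A and wt the genes of oxidative phosphorylation differed little. Of the 84, 43 stood above wt and 41 below it, beside 49.8% of all genes above and 50.2% below, and the median was 0.00. None reached 1.5-fold in either direction, sizes that 0.095% of all genes reached upwards and 0.147% downwards, and none reached 2-fold (0.00864% of all genes in each direction). The counting interval of the S473A to wt ratio excluded 1 for 2 genes on the higher side and 1 on the lower side, where 3.0% and 2.65% of all genes did so. Those genes were NDUFB7, with a ratio of 1.16 (interval 1.03 to 1.31), CYC1, and SDHB, with a ratio of 0.88 (0.804 to 0.966). Counts this small among 84 genes lie near the shares of all genes, so they do not set the members apart from other genes. Next to NDUFB7 the highest differences were those of NDUFAF1 (0.15) and NDUFB6 (0.14), and next to SDHB the lowest were those of COX6B1 (-0.11) and NDUFAF3 (-0.11). NDUFB6, an accessory subunit of the membrane arm, stood at 70.9 RPKM in S473D, 47.6 in S473A and 43.2 in wt. The complex medians lay between -0.03 for complex II and 0.07 for the assembly factors.

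Set against S473A in place of wt, the S473D library gave similar values, and since both comparisons use the S473D library they are not independent of each other. For S473D minus S473A, 78 of 84 genes were above and 6 below 0 (all genes 39.3% above), with a median of 0.62 beside -0.10 for all genes. At least 1.5-fold higher were 46 genes, against 6.86% of all genes, and at least 2-fold higher 9, against 1.0% of all genes. The counting interval of the ratio excluded 1 on the higher side for 75 genes (22.9% of all genes) and on the lower side for 5 (37.7%). None was 1.5-fold lower (3.0% of all genes). The complex medians were 0.92 for complex IV, 0.84 for complex III, 0.61 for complex I subunits, 0.58 for its assembly factors, 0.53 for complex V and 0.24 for complex II. Complex IV therefore came first here and complex III first against wt, and the order of those 2 is not settled. COX7B (1.34), COX7A2 (1.29), NDUFA4 (1.26) and COX6A1 (1.20) were highest. ATP5D (-0.53), SDHA (-0.36), SDHC (-0.26) and NDUFV1 (-0.21) were lowest.

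Subunits of these complexes are mostly small proteins, and short transcripts as a whole stood higher in S473D. Across the 84 genes the S473D minus wt difference had a Spearman correlation of -0.50 with coding length, and across 10871 genes of all kinds -0.45. For S473A minus wt the values were 0.17 and 0.02. These are descriptions across genes that share the same libraries. Among coding sequences of up to 300 bases the median difference was 0.90 for the 18 genes of oxidative phosphorylation and 0.49 for 229 other genes. Between 300 and 450 bases it was 0.73 for the 26 genes of oxidative phosphorylation and 0.35 for 506 other genes. From 450 to 600 bases the medians were 0.41 for the 16 genes of oxidative phosphorylation and 0.16 for 668 other genes. From 600 to 900 bases they were 0.75 for the 9 genes of oxidative phosphorylation and 0.08 for 1515 other genes, and from 900 to 1500 bases 0.34 for the 11 genes of oxidative phosphorylation and -0.06 for 2997 other genes. Above 1500 bases they were 0.13 for the 4 genes of oxidative phosphorylation and -0.22 for 4866 other genes. The medians of both kinds of genes were lower in the longest class than in the shortest, and the genes of oxidative phosphorylation had the higher median in each of the 6 classes. Of them, 72 of 84 lay above the median of other genes in their own class, with all 9 of the 600 to 900 base class among them.

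**Figure D4:**
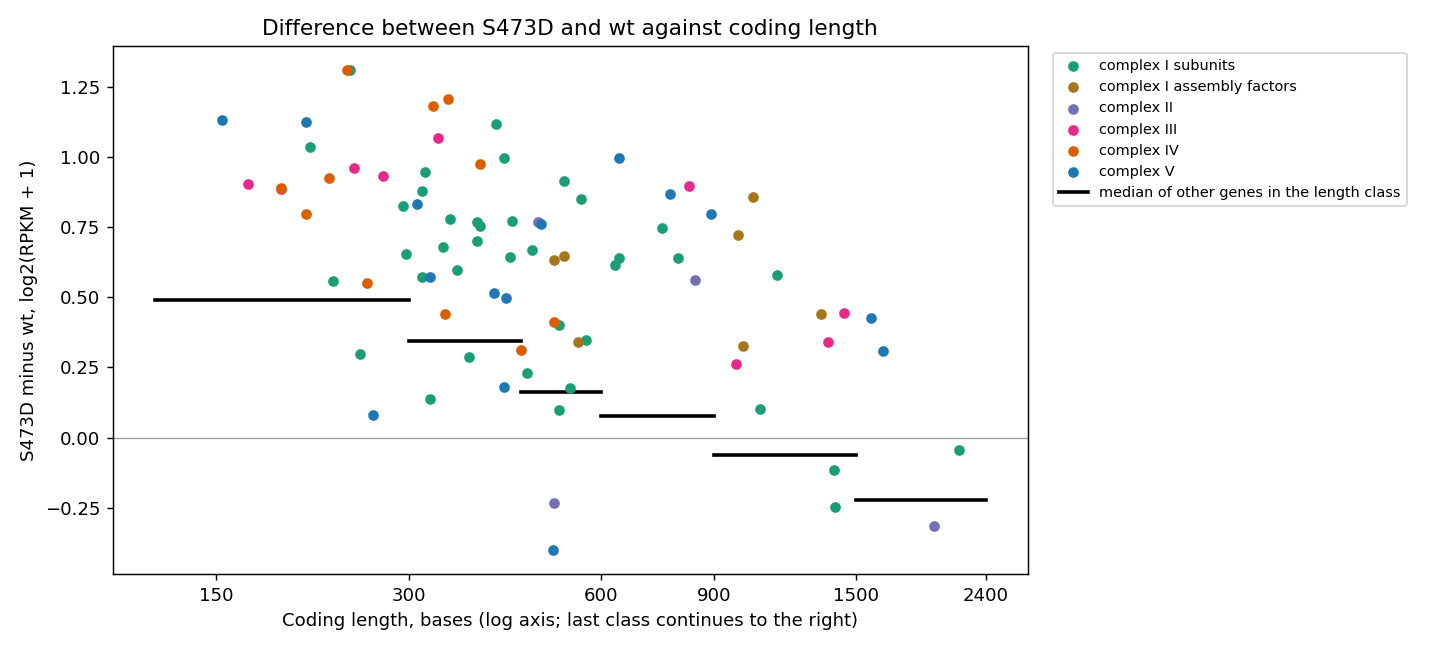
S473D minus wt difference in log2(RPKM + 1) of each of the 84 genes against coding length in bases (log axis), coloured by group, with black bars at the median of other genes in each length class. The points drift down with length as the bars do, from 0.49 to -0.22 for the bars, and most points lie above the bar of their class.

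The dependence on transcript length and GC content was fitted over all genes and subtracted to show what remains. The median of the 84 genes for S473D minus wt was then 0.24, against -0.10 for all genes, with 65 genes above 0 beside 34.7% of all genes. Complex III stood at 0.32, complex IV 0.31, complex V 0.28, complex I assembly factors 0.27, complex I subunits 0.19 and complex II 0.01. The count at least 1.5-fold higher was 11, against 1.74% of all genes, and 1 gene, ATP5D, was 1.5-fold lower (3.36% of all genes). At least 2-fold higher were 2 genes (0.185% of all genes), NDUFA11 at 1.07 and UQCRB at 1.024, and the level of UQCRB is uncertain. With coding length in place of transcript length the 2-fold count was 0. For S473D minus S473A, 12 genes were 1.5-fold higher (1.66% of all genes), 2 were 2-fold higher (0.177%) and 1 was 1.5-fold lower (3.48%). Single values moved unevenly. COX7B then stood at 0.37, while NDUFA4 stood at 0.98, UQCRFS1 at 0.86, SDHA at -0.29 and ATP5D at -0.65. With coding length in place of transcript length, NDUFA4 stood at 0.57, COX7B at 0.59 and SDHA at -0.16. ATP5E stood at 0.26 with coding length and at 0.98 with transcript length. SDHC stood at -0.64 with coding length and at -0.11 with transcript length, so that SDHC was then the 1 gene 1.5-fold lower and ATP5D, at -0.57, fell short of that size. Of the genes above wt before the removal by transcript length, NDUFAF2 (0.63) then stood at -0.08 and ATP5J2 (0.08) at -0.52. The lengths came from an annotation of another genome build than hg19 and can differ from the expressed transcript, so single values after this step are rough. Whether the dependence on length comes from the cells or from the making of the S473D library was not tested, and with 1 library they cannot be told apart.

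Other genes of the pathway stood nearer to wt by their medians. The 36 other genes listed, most of them for assembly factors, all passed the filter. Of these, 29 stood above wt in S473D (39.3% of all genes) and 11 were at least 1.5-fold higher (6.82% of all genes). Their median was 0.32 (0.12 with the trends removed). The copper chaperone COX17, which delivers copper for complex IV, was highest at 74 RPKM in S473D, 38.6 in S473A and 35.6 in wt (1.04), and NUBPL, which supplies iron-sulfur clusters to complex I, lowest at 2.18 RPKM in S473D, 2.82 in S473A and 2.95 in wt (-0.31). COX17 was highest in S473D and NUBPL lowest there. Of 14 genes of electron carriers and ubiquinone synthesis, 8 stood above wt and 3 at least 1.5-fold (median 0.32, and 0.095 with the trends removed). Among them PDSS1, which makes the ubiquinone tail, was highest at 24.1 RPKM in S473D, 16.2 in S473A and 13.4 in wt (0.80), COQ7 was lowest at 4.87 RPKM in S473D, 6.04 in S473A and 5.64 in wt (-0.18), and CYCS, cytochrome c itself, stood at 111 RPKM in S473D, 66.3 in S473A and 65.5 in wt (0.75).

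Genes that express or copy mitochondrial DNA had a median of -0.03 over 9 genes, 2 of them at least 1.5-fold higher in S473D (6.82% of all genes). With the trends removed the median was -0.04 over the 8 genes that had a value. TFB2M, a mitochondrial transcription factor, was highest at 19.9 RPKM in S473D, 10.4 in S473A and 10.6 in wt (0.84), and POLG, the mitochondrial DNA polymerase, lowest at 17 RPKM in S473D, 21.5 in S473A and 21.3 in wt (-0.31). TFAM, which packages mitochondrial DNA and starts its transcription, stood at 38 RPKM in S473D, 34 in S473A and 33.9 in wt (0.16). Nuclear regulators of respiratory genes had a median of -0.13 (-0.02 with the trends removed) over 9 genes, with 0 past 1.5-fold in either direction. The shares of all genes were 6.82% higher and 3.23% lower, so 0 of 9 genes does not set this list apart. NRF1 stood at 5.36 RPKM in S473D, 5.55 in S473A and 5.31 in wt (0.01), and the ETS factor subunits GABPA and GABPB1 had differences of 0.10 and 0.37, the second the highest of the list. SP1, which binds GC boxes, was lowest at 12.6 RPKM in S473D, 16.3 in S473A and 16.7 in wt (-0.39). PPARGC1A, the coactivator PGC-1 alpha, did not pass the filter at 0.185 RPKM in S473D, 0.268 in S473A and 0.319 in wt. Between S473A and wt the medians of these 4 lists lay between -0.02 and 0.02. Of their genes 0 reached 1.5-fold, where 0.095% of all genes did so upwards and 0.147% downwards.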

How the data were processed

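Total RNA of 3 libraries, 1 for each form of KAP1, was extracted with TRIzol and sequenced by Illumina's methods, per the labels' protocols. Bowtie, Partek and build hg19 are named in the submitters' processing notes, while their versions, the annotation and the counting rule were not stated there. The deposited table holds log2 RPKM made by the authors, and its lowest value in each column, -3.32, is the log2 of 0.1, which was therefore taken as added to each RPKM and was subtracted again. Of 19076 lines, 27 with date-like, numeric or repeated symbols were left out, as were 169 short RNAs, and a mean of at least 1 RPKM was required. The pseudocount was 1.

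Depth was estimated as the number of reads at which low RPKM times transcript length falls nearest to whole numbers. At that depth 45.2% to 47.9% of low values lay within 2% of the nearest whole number. The depth was chosen for the best fit and the share expected by chance was not computed, so these shares do not test it. Counts were not given, so depth is only estimated and tests on counts were not run. Transcript and coding lengths came from GENCODE release 29, 1 transcript per symbol, matched through RefSeq synonyms, for 97.9% of genes and all 84 members that passed. Trends were lowess fits (fraction 0.2, 2 rounds, statsmodels 0.14.6, Python 3.11.15), whose removal kept the overall median. Genes were counted at 1.5-fold and 2-fold. Named genes were the 2 highest and 2 lowest differences and the 2 highest levels per complex, complex II, core subunits, isoform groups, genes past 2-fold, the extremes of S473A minus wt, and the highest and lowest gene of other lists. Further members were named after their values were seen, and 1 complex I gene is counted but not reported here by name. The steps were tested on simulated reads. The members and lists were chosen with earlier results of these data known.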

Additional observations from a re-analysis of the deposited data

Results flagged for a closer look

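Of the pseudogene entries left out of the members, 2 passed the level filter. ATP5EP2 stood at 222 RPKM in S473D, 94.2 in S473A and 88.4 in wt, with a difference of 1.32 for S473D minus wt, and UQCRBP1 at 85.8 RPKM in S473D, 40.9 in S473A and 39.2 in wt, with a difference of 1.11. Both are far above the level at which genes were kept, and their differences are close to those of ATP5E (1.13) and UQCRB (1.07). With the length and GC trends removed, ATP5EP2 stood at 0.29 and ATP5E at 0.98, and UQCRBP1 at 0.07 and UQCRB at 1.024. This step used transcript lengths of 156 bases for ATP5EP2 and 3665 for ATP5E, and of 336 for UQCRBP1 and 5575 for UQCRB. The coding sequences of ATP5E and UQCRB are only 153 and 333 bases. Unequal trends were thus subtracted from a gene and its copy, and the gap after removal is no measured difference between them. How reads were shared between each gene and its copy was not tested.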

How the results depend on the processing

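With 1 library per group no library could be left out, and depth limits single genes only through counting error. No paired analysis was possible because each group has 1 library. Pseudocounts of 0.1 and 0.5 and a minimum mean of 5 RPKM moved no median by more than the typical margin (to either side) of its genes' counting intervals and kept each count within 1.5 times. No gene past 2-fold changed sign under the settings tried, whereas NDUFS1 (-0.04) stood at 0.06 after centring, 0.06 after scaling and 0.06 with trends removed. Without a filter the complex IV median was 0.67, since silent isoforms entered it. Centring on the median of all genes gave 0.995 for complex III and 18 and 19 genes at least 2-fold higher for S473D minus wt and minus S473A. Scaling by a trimmed mean of log ratios, which moved the median of all genes to -0.01, gave 1.006 for complex III, 1.001 for complex IV, and 20 and 19 genes. With transcript length and GC trends removed, the members' medians were 0.24 against wt and 0.20 against S473A. The 2-fold counts were then 2 and 2 and the 1.5-fold counts 11 and 12 higher, 1 and 1 lower. The complex medians against wt were 0.19 (I), 0.27 (assembly), 0.012 (II), 0.32 (III), 0.31 (IV) and 0.28 (V). With coding length in place of transcript length, an alternative chosen after seeing the data, the medians were 0.27 and 0.25. The 2-fold counts were 0 and 0 and the 1.5-fold counts 12 and 13 higher, 1 and 2 lower. The complex medians were 0.23 (I), 0.29 (assembly), 0.07 (II), 0.38 (III), 0.21 (IV) and 0.26 (V), so complex IV lay below the complex I subunits and assembly factors with coding length and above both with transcript length, and the cause was not tested. For S473A minus wt the median stayed between 0.00 and 0.01 and the counts at 0.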
